A study of Homo sapiens with 6 samples.

Results

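The genes described here are those of the tumor necrosis factor (TNF) superfamily: its ligands, its receptors and the adaptor proteins that the receptors recruit. Members were picked by a rule on gene symbols alone, and 52 of the 20348 genes in the expression table matched. They comprise 17 ligand genes, 6 death receptors, 4 decoy receptors, 15 other receptors and 10 adaptors. RNA sequencing had been performed on MV4-11, an established acute myeloid leukemia (AML) cell line, in 3 Control samples and 3 samples treated with WNK463, a small-molecule inhibitor of the WNK family of kinases. The Control samples are labelled as untreated, and the WNK463 samples received 1 μM WNK463 for 48 h. All 6 samples came from this single cell line, and no source used here says that they were separate cultures, so p-values measure only the spread between these samples.

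Ligands of this family act as trimers that are displayed on the cell surface or shed from it, and each binds 1 or more receptors on neighbouring cells. Death receptors carry an intracellular death domain that recruits FADD or TRADD and, through FADD, caspase-8, whereas CFLAR competes with caspase-8 at the same complex. Decoy receptors bind ligand without a working death domain, and the other receptors bind TRAF proteins and drive NF-κB and MAP kinase signalling. Monocytes and monocytic leukemia cells are well known as producers of TNF, BAFF and APRIL and as carriers of the TNF receptors.

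Total estimated counts lay between 14915745 and 17411780 per sample. A count of 3 in a single sample, used as the detection floor, corresponds to 0.174 to 0.206 CPM (counts per 1000000, scaled with TMM factors). Of 12 myelomonocytic marker genes, 11 passed the filter on low counts, and CD14 did not. Their summed level was 2762 to 2911 TPM (transcripts per 1000000) in Control and 1714 to 1739 TPM under WNK463. LYZ, whose mean was 1697 TPM in Control and 418 TPM under WNK463, carried this fall. Without LYZ the sum was 1121 to 1159 TPM in Control and 1301 to 1321 TPM under WNK463, and by edgeR 5 of the 11 markers rose (CEBPA, CSF1R, ITGAM, MEIS1 and HOXA9), 5 fell (LYZ, MPO, CD33, FLT3 and CD68) and SPI1 did not pass. The T cell markers summed to 0.566 to 1.12 TPM in Control and 1.32 to 1.77 TPM under WNK463, with CD3D and CD3G at 0, and the B cell markers to 1.23 to 2.37 and 2.53 to 3.15 TPM, with MS4A1 at 0. NK cell markers summed to 23.9 to 31.9 TPM in Control and 44.0 to 45.0 TPM under WNK463. Most of this came from NKG7, at a mean of 36.4 TPM, and NCR1 was at 0. All 4 erythroid markers were at 0, and the fibroblast and epithelial markers summed to 21.9 to 23.6 and 23.4 to 24.7 TPM, with COL1A2, EPCAM and CDH1 at 0. The part of these shifts in the values below was not tested. In bulk RNA, fewer cells of a type and less RNA per cell cannot be told apart.

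Under WNK463 most of the expressed ligands rose, led in level by TNFSF13 (APRIL) and CD70, while receptors and adaptors moved in both directions. The calls of the ligands TNF and TNFSF10 did not hold with DESeq2, another test for counts. The receptor TNFRSF25 went from near the detection floor to a low but clear level, FAS rose, and TNFRSF10B fell. CFLAR, the inhibitor of caspase-8 activation, rose, whereas TRAF2, TRAF3, TRAF7 and FADD fell. The call of FADD did not hold when counts were scaled to the sample totals, nor on the TPM scale. Of the 52 members, 34 passed the filter on low counts. By edgeR's quasi-likelihood test at an adjusted p below 0.05, 15 of these 34 rose, 9 fell and 10 did not pass. That is 70.6% of the tested members, against 70.8% of all 11973 genes tested, so the share of members that changed was close to the background. Among all genes, 35.5% rose and 35.3% fell. The median log2 fold change was 0.26 over the tested members and 0.02 over all genes tested.

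Most of these changes were below 2-fold. Only 4 members, TNFRSF25, LTB, CD40 and TNFSF4, passed the adjusted p and also changed 2-fold or more (a log2 fold change of 1 or beyond in size), and all 4 rose. This is 11.8% of the tested members against 15.2% of all genes, of which 9.62% rose and 5.55% fell to this extent. Log2 fold changes ranged from -0.91 for the decoy receptor TNFRSF10C to 4.24 for TNFRSF25. The CPM of the 3 WNK463 samples lay above all 3 Control samples for 15 members and below them for 10, and the groups overlapped for 9. Across all genes, 73.5% did not overlap. Scaling to the total counts, without TMM factors, raised the median of all genes by 0.15 on the log2 scale, and the members then split into 19 that rose and 6 that fell. Under that scaling the rising share of passing members was 76.0% in place of 62.5%, and that of all passing genes 63.9% in place of 50.2%.

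**Figure D1:**
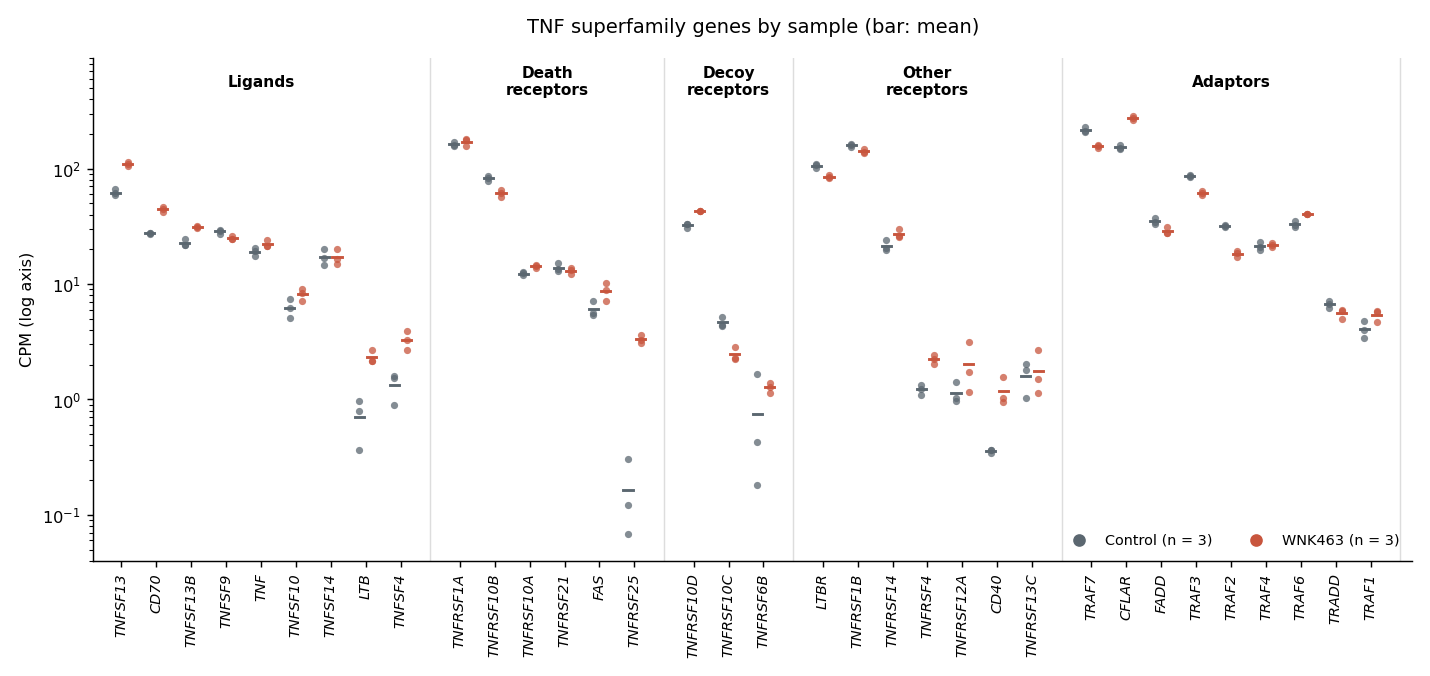
CPM (log axis) of the 34 tested TNF superfamily genes in each sample, grouped by role, with Control in grey and WNK463 in red (n = 3 each) and a bar at each mean. TNFRSF25 shows the widest separation, from 0.165 to 3.31 CPM on average, and most other genes moved by less than 2-fold.

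NF-κB is the transcription factor that many of these receptors activate, and several superfamily genes are known to be its targets. The 250 bases before the RefSeq start sites (GRCh38.p14) were searched on both strands for the κB consensus, counting overlapping matches. Of the 37 members with a promoter entry, 11 held a match, of which 7 passed the filter on low counts. These 7 are shown because they let the motif be read beside the measured changes. Capitals mark the match, with 10 bases on each side, in the orientation of the gene's transcription.
CFLAR: cgcggggggcGGGGAATTCCgcagacagga
TNFSF13: tcctcctgcgGGGAAATCCCttcctggctg
LTB: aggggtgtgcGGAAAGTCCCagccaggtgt
FAS: ggtcgctggaGGGGGACCCCggttggagag
TNFRSF14: gatggactttGGGGGGCTCCcccttctaca
TRAF3: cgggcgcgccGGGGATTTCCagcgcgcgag
TNFSF14: agggaaagctGGGGGCTCCCcactgcactt

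The CFLAR match started 97 bases before the start site, in chr2:201118609-201118638 on the plus strand. The TNFSF13 match started 141 bases before it, in chr17:7558131-7558160 (plus), and the LTB match 87 bases before it, in chr6:31582492-31582521 (minus). Those of FAS, in chr10:88991264-88991293 (plus), and TNFRSF14, in chr1:2556275-2556304 (plus), started 157 and 86 bases before the start sites. The TRAF3 match lay in chr14:102777406-102777435 (plus), 33 bases before the start, and the TNFSF14 match in chr19:6670333-6670362 (minus), 194 bases before it. TNFRSF14 and TNFSF14 held further matches that overlap the ones printed. Distances are to the start site of a window that held the match. CFLAR, FAS and TNFSF13 have other RefSeq start sites whose windows held no match. Of the 7 genes, 5 rose, TRAF3 fell and TNFSF14 did not pass. Of the 17 tested members with an entry and no match, 6 rose, 6 fell and 5 did not pass. TNFRSF25 and TNFSF4 were among those that rose without a match. For all genes tested, the shares were 35.5% that rose and 35.3% that fell. Only 24 of the 34 tested members had an entry, and CD40 and CD70 had none. Whether a match goes with a change was not tested. Over all 35116 promoter windows, 9.96% held a match, and 11.8% of all genes with an entry held one in any of their windows. A match describes the letters of the window only, and the absence of one says nothing about binding.

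Among the 9 tested ligands, 7 rose, TNFSF9 fell and TNFSF14 did not pass, with a median log2 fold change of 0.45. Of all genes tested, 35.5% rose and 35.3% fell. TNFSF13 encodes APRIL, a secreted ligand that supports B lineage and plasma cells. It lies on chr17:7558292-7561608 (plus strand; GENCODE 29, GRCh38). It had 66.1, 58.8 and 61.1 CPM in the Control samples and 106, 109 and 113 CPM in the WNK463 samples. The groups were well apart, and every WNK463 sample exceeded every Control sample. The mean went from 62.0 ± 3.72 to 109.5 ± 3.43 CPM (SD, n = 3), a log2 fold change of 0.82 (SE 0.06; edgeR adjusted p = 7.5e-10). Per length it was the most abundant ligand, at 64.0 ± 3.93 TPM in Control and 137 ± 2.46 TPM under WNK463 (SD, n = 3). Of its 2276 annotated exon bases, 55.5% are shared with the read-through gene TNFSF12-TNFSF13, which was at 0 in all 6 samples.

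CD70, the ligand of the lymphocyte receptor CD27 and a surface antigen of AML blasts, was the ligand next in level. It lies on chr19:6583183-6604103 (minus strand). Its values were 27.2, 27.8 and 27.7 CPM in Control and 42.4, 44.8 and 46.7 CPM under WNK463. The Control samples were nearly equal and all lay below the WNK463 samples. The log2 fold change was 0.69 (SE 0.07; edgeR adjusted p = 8.0e-08), and the mean level per length went from 56.5 to 105 TPM. Its receptor gene CD27 had at most 2 counts in any sample.

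LTB encodes lymphotoxin beta, the membrane partner of lymphotoxin alpha, and lies on chr6:31580525-31582522 (minus strand). It was a low gene, with 6, 14 and 13 counts in Control and 44, 37 and 34 counts under WNK463. The groups did not overlap. The summed counts of 33 and 115 gave a ratio of 3.34 per effective library (95% interval 2.25 to 5.08, counting error only), and the log2 fold change was 1.72 (SE 0.35; edgeR adjusted p = 2.5e-04). TNFSF4, the OX40 ligand that costimulates T cells, lies on chr1:173183734-173207313 (minus strand). It had 25, 13 and 26 counts in Control and 54, 67 and 42 counts under WNK463, again without overlap. Its log2 fold change was 1.29 (SE 0.28; edgeR adjusted p = 5.7e-04), and the ratio of summed counts was 2.44 (95% interval 1.82 to 3.31). LTA, the other lymphotoxin gene, stayed below the filter with 0, 2 and 0 counts in Control and 4, 5 and 7 under WNK463. The ratio of its sums, 2 and 16 counts, was 7.67 with a wide counting interval of 1.80 to 68.8.

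TNFSF13B, which encodes the B cell survival factor BAFF, rose from a mean of 22.8 to 31.2 CPM (log2 fold change 0.45, edgeR adjusted p = 6.1e-05). TNF itself had 20.5, 17.4 and 19.4 CPM in Control and 21.5, 24.1 and 21.5 CPM under WNK463. The groups were separate but close, and the log2 fold change of 0.23 (SE 0.09) passed narrowly (edgeR adjusted p = 0.036). TNFSF10, the death receptor ligand TRAIL, had 5.05, 6.24 and 7.38 CPM in Control and 9.12, 8.31 and 7.15 CPM under WNK463. Its groups overlapped, and its log2 fold change was 0.40 (edgeR adjusted p = 0.036). TNFSF9, a costimulatory ligand, was the ligand that fell, from a mean of 28.6 to 25.0 CPM (log2 fold change -0.20, edgeR adjusted p = 0.030), while its mean was 32.5 TPM in both groups. The calls of TNF, TNFSF10 and TNFSF9 were lost with DESeq2 (adjusted p = 0.081, 0.064 and 0.067). They were also lost without single samples, with edgeR adjusted p up to 0.20 for TNF (without Control replicate 2 or 3 or WNK463 replicate 2), 0.16 for TNFSF10 (without replicate 1 or 2 of either group) and 0.084 for TNFSF9 (without Control replicate 1 or WNK463 replicate 1 or 2). TNFSF14 (LIGHT) overlapped between groups, with a log2 fold change of -0.01 (95% interval -0.28 to 0.26).

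The remaining ligand genes were close to or at 0. FASLG and TNFSF8 had no count in any sample, which allows up to 0.206 CPM per sample. TNFSF11, TNFSF12, TNFSF15 and TNFSF18 had at most 4 counts in any sample. FASLG encodes the ligand of FAS, whose own transcripts were detected in every sample.

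**Figure D2:**
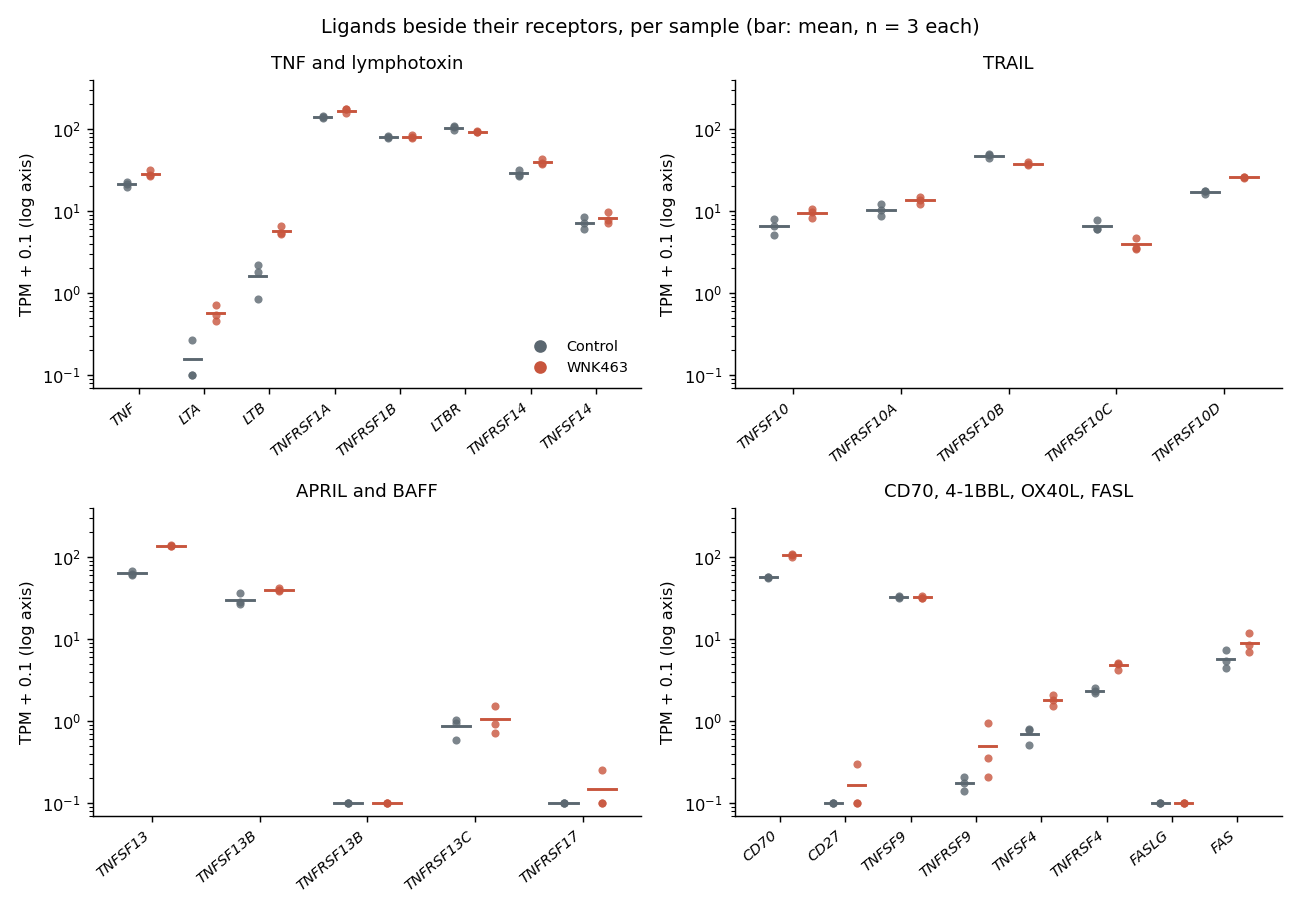
TPM + 0.1 (log axis) of ligand and receptor genes in Control and WNK463 samples (n = 3 each), set out by ligand and receptor pairing, with a bar at each mean. TNFSF13 reached 137 TPM on average while its receptor genes TNFRSF13B and TNFRSF17 had at most 1 count in any sample, and TNFRSF1A stood at 140.2 TPM in Control beside 21.1 TPM for TNF.

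All 6 death receptor genes were tested, and their levels and changes differed widely. TNFRSF25 and FAS rose, TNFRSF10B fell, and TNFRSF1A, TNFRSF10A and TNFRSF21 did not pass. Their median log2 fold change was 0.14. The share of the 6 that passed was 50%, beside 70.8% of all genes tested (35.5% rose and 35.3% fell). With scaling by total counts, TNFRSF1A and TNFRSF10A passed as well, so that 4 death receptors rose.

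TNFRSF1A, the main receptor for soluble TNF, was the most abundant of the 6 per length. It had 168, 157 and 161 CPM in Control and 178, 157 and 179 CPM under WNK463. WNK463 replicate 2 lay among the Control samples, and the log2 fold change was 0.08 (95% interval -0.04 to 0.20, edgeR adjusted p = 0.23). Without that sample TNFRSF1A passed, with a log2 fold change of 0.14 (edgeR adjusted p = 0.036). TNFRSF10B, a TRAIL receptor also called DR5, had 86.9, 83.6 and 78.2 CPM in Control and 65.8, 61.7 and 57.2 CPM under WNK463. All WNK463 samples lay below all Control samples. The mean went from 82.9 ± 4.42 to 61.6 ± 4.32 CPM (SD, n = 3), a log2 fold change of -0.43 (SE 0.06; edgeR adjusted p = 1.0e-05).

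TNFRSF10A, the other TRAIL receptor with a death domain, had 12.0, 12.6 and 12.4 CPM in Control and 14.4, 13.9 and 14.5 CPM under WNK463. The groups did not overlap, yet the log2 fold change of 0.21 did not pass (edgeR adjusted p = 0.067). TNFRSF21 (DR6) had 12.8, 15.3 and 13.5 CPM in Control and 13.7, 13.3 and 12.3 CPM under WNK463. The groups overlapped, and the log2 fold change was -0.08 (95% interval -0.31 to 0.14), with a sign that turned under scaling by total counts.

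FAS lies on chr10:88990582-89015785 (plus strand). It had 5.42, 5.62 and 7.14 CPM in Control and 7.19, 10.2 and 8.81 CPM under WNK463. The lowest WNK463 sample was just above the highest Control sample. The mean went from 6.06 ± 0.937 to 8.74 ± 1.52 CPM (SD, n = 3), a log2 fold change of 0.53 (SE 0.16; edgeR adjusted p = 0.0080). Without WNK463 replicate 2 the log2 fold change was 0.39 and the call was lost (edgeR adjusted p = 0.059). The call was also lost on the TPM scale without the filter on low counts (limma on log2(TPM + 1), adjusted p = 0.068).

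TNFRSF25 (DR3), the receptor for the ligand TNFSF15 and mostly known from T cells, lies on chr1:6460786-6466195 (minus strand). It had 2, 1 and 5 counts in Control and 51, 62 and 51 counts under WNK463. The WNK463 samples were close to each other and far above every Control sample. Summed counts of 8 and 164 gave a ratio of 19.7 (95% interval 9.75 to 46.3), and the log2 fold change was 4.24 (95% interval 3.36 to 5.11, edgeR adjusted p = 5.5e-08). With single samples left out it ranged from 3.90 to 4.98, highest without Control replicate 3, which held 5 of the 8 Control counts. Even so its mean under WNK463 was only 4.93 TPM, against 0.229 TPM in Control. PLEKHG5, a neighbour on the same strand, shares 104 of the 4283 exon bases of TNFRSF25. PLEKHG5 had 89, 69 and 65 counts in Control and 671, 611 and 607 under WNK463 (log2 fold change 3.02, edgeR adjusted p = 1.9e-13). ESPN on the other strand shares 383 exon bases and fell (log2 fold change -1.88, edgeR adjusted p = 1.2e-05). The part of reads from these neighbours in the TNFRSF25 counts was not tested.

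Of the 4 decoy receptor genes, TNFRSF10D rose, TNFRSF10C fell, TNFRSF6B did not pass, and TNFRSF11B (osteoprotegerin) had at most 3 counts in any sample. Thus 66.7% of the 3 tested decoy receptors passed, beside 70.8% of all genes tested. TNFRSF10D, which binds TRAIL with a truncated death domain, had 33.3, 30.7 and 33.0 CPM in Control and 42.9, 43.3 and 42.8 CPM under WNK463. The WNK463 samples were nearly equal and above all Control samples, with a log2 fold change of 0.41 (SE 0.07; edgeR adjusted p = 3.0e-05). TNFRSF10C, a TRAIL receptor without an intracellular domain, had 4.32, 5.21 and 4.45 CPM in Control and 2.23, 2.85 and 2.30 CPM under WNK463. All its WNK463 samples were below the Control samples, and the log2 fold change of -0.91 (edgeR adjusted p = 0.0010) was the largest decrease among the tested members. Without WNK463 replicate 2 it was -1.04. The 4 TRAIL receptor genes lie within 205 kb of each other on chromosome 8, and of these TNFRSF10B and TNFRSF10C fell, TNFRSF10D rose and TNFRSF10A did not pass.

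TNFRSF6B, the soluble decoy for FAS ligand, TNFSF14 and TNFSF15, had 3, 24 and 7 counts in Control and 19, 24 and 20 counts under WNK463. Control replicate 2 stood at the WNK463 level, and the log2 fold change of 0.80 had a 95% interval of -0.26 to 1.87 (edgeR adjusted p = 0.16). All 1141 exon bases of TNFRSF6B also belong to the read-through gene RTEL1-TNFRSF6B. That gene had 80, 10 and 63 counts in Control and 75, 68 and 72 under WNK463, lowest in the same sample in which TNFRSF6B was highest. How reads were split between these genes was not tested. Without Control replicate 2 the log2 fold change was 2.03 (edgeR adjusted p = 0.0023), whereas it was 0.32 without Control replicate 1 and 0.51 without Control replicate 3 (edgeR adjusted p = 0.55 and 0.42).

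**Figure D3:**
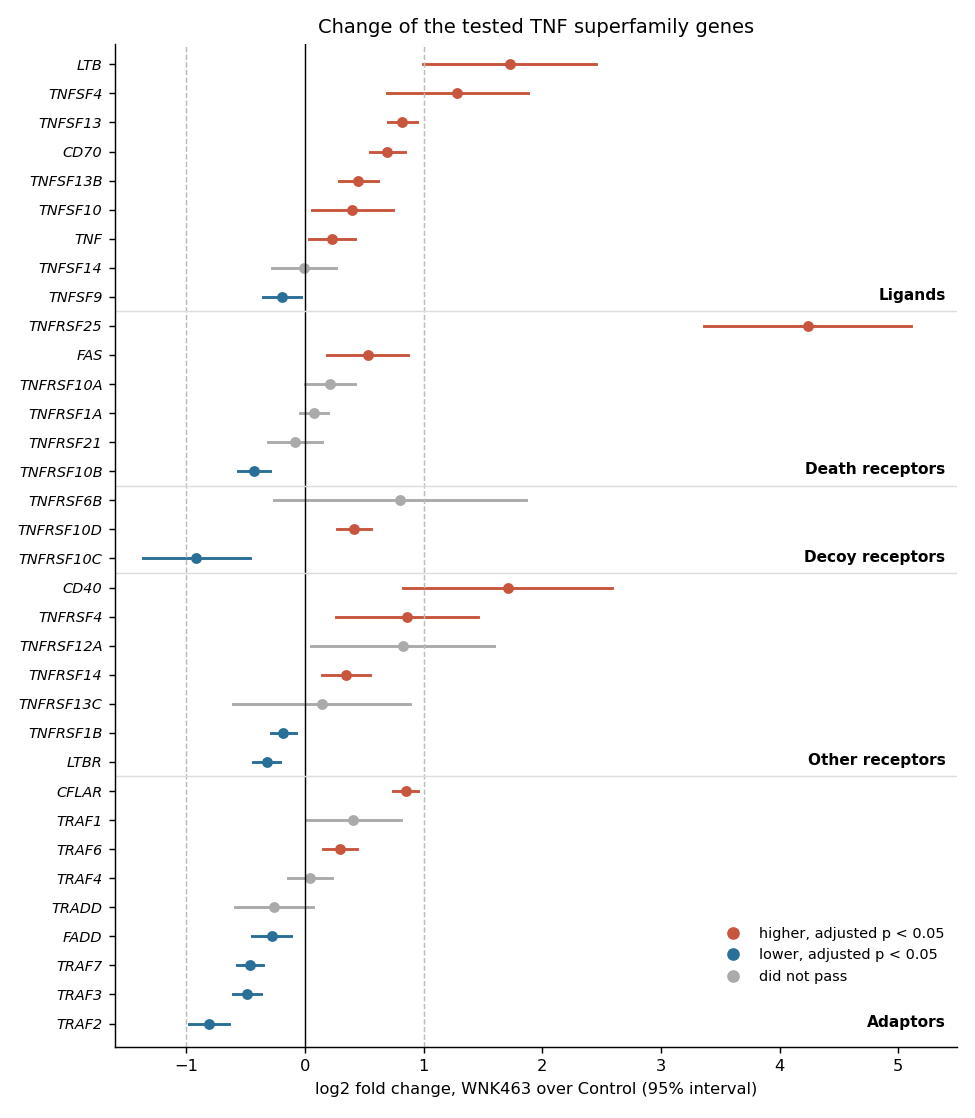
Log2 fold change of WNK463 over Control with its 95% interval for the 34 tested TNF superfamily genes, by role; red and blue mark genes that rose or fell at an edgeR adjusted p below 0.05, and dashed lines stand at -1 and 1. Ligands lie mostly to the right of 0 (7 of 9 rose), while the adaptors spread to both sides (2 rose and 4 fell). Of all genes tested, 35.5% rose and 35.3% fell, and the calls of TNF and TNFSF10 were lost with DESeq2.

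Of the 7 other receptors tested, 3 rose, 2 fell and 2 did not pass, with a median log2 fold change of 0.34. Thus 71.4% passed, beside 70.8% of all genes tested. The most abundant of the 7 per length were LTBR and TNFRSF1B. LTBR, the lymphotoxin beta receptor, had 102, 109 and 107 CPM in Control and 87.4, 82.4 and 84.5 CPM under WNK463. The groups were separate, and the log2 fold change was -0.32 (SE 0.05; edgeR adjusted p = 3.4e-05). Thus LTBR fell while its ligand subunit LTB rose, but from very different levels. TNFRSF1B, the second TNF receptor, which lacks a death domain, had 165, 159 and 155 CPM in Control and 147, 136 and 139.6 CPM under WNK463. Its log2 fold change was -0.18 (SE 0.05; edgeR adjusted p = 0.0040). On the TPM scale TNFRSF1B was level, at 80.3 and 81.0 TPM, so its direction depended on the scaling.

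CD40, the receptor of antigen-presenting cells for CD40 ligand, lies on chr20:46118272-46129863 (plus strand). It was detected with few reads, 6, 5 and 6 counts in Control and 17, 27 and 15 counts under WNK463. The groups did not overlap, the ratio of summed counts was 3.33 (95% interval 1.91 to 6.09), and the log2 fold change was 1.71 (SE 0.42; edgeR adjusted p = 0.0014). TNFRSF14, the receptor of TNFSF14, rose (log2 fold change 0.34, edgeR adjusted p = 0.0041), as did TNFRSF4 (OX40), from a mean of 1.22 to 2.23 CPM (log2 fold change 0.86, edgeR adjusted p = 0.012). TNFRSF4 and its ligand gene TNFSF4 both rose, each at a low level.

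TNFRSF12A, the TWEAK receptor, and TNFRSF13C, the BAFF receptor, did not pass (log2 fold change 0.82 and 0.14, edgeR adjusted p = 0.053 and 0.73). The groups of both overlapped. TNFRSF12A passed without Control replicate 3 (edgeR adjusted p = 0.050) and without WNK463 replicate 3 (log2 fold change 1.09, edgeR adjusted p = 0.014). Without WNK463 replicate 1, which held 52 counts, its log2 fold change was 0.35 (edgeR adjusted p = 0.43). The other 8 receptor genes were below the filter. TNFRSF8 had 6 to 12 counts and TNFRSF9 2 to 12 counts per sample, while CD27, TNFRSF11A, TNFRSF17, TNFRSF18 and TNFRSF19 had at most 4 and TNFRSF13B none.

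Among the 9 tested adaptors, CFLAR and TRAF6 rose, TRAF2, TRAF3, TRAF7 and FADD fell, and TRAF1, TRAF4 and TRADD did not pass. Their median log2 fold change was -0.26. The share of the 9 that passed was 66.7%, beside 70.8% of all genes tested. CFLAR (c-FLIP) lies on chr2:201116104-201176687 (plus strand). It had 148, 159 and 150 CPM in Control and 274, 283 and 266 CPM under WNK463. Every WNK463 sample was far above every Control sample. The mean went from 152 ± 6.15 to 274 ± 8.49 CPM (SD, n = 3), a log2 fold change of 0.85 (SE 0.05; edgeR adjusted p = 5.5e-11). The direction and the call held in all 14 alternative settings, with log2 fold changes from 0.53 to 1.00.

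Of the TRAF genes that fell, TRAF2 and TRAF3 encode proteins of receptor complexes and of the complex that keeps the kinase MAP3K14 (NIK) low. TRAF2, on chr9:136881912-136926607 (plus strand), had 31.8, 32.3 and 31.5 CPM in Control and 19.1, 17.0 and 18.4 CPM under WNK463. The groups were well apart, and the log2 fold change was -0.81 (SE 0.08; edgeR adjusted p = 6.7e-08). TRAF3 had 84.1, 86.9 and 87.4 CPM in Control and 60.9, 59.4 and 63.6 CPM under WNK463, with a log2 fold change of -0.49 (edgeR adjusted p = 3.5e-07). TRAF7, the most abundant adaptor per length, had 229.5, 212 and 206 CPM in Control and 157, 150.5 and 161 CPM under WNK463. It fell by 0.47 on the log2 scale (edgeR adjusted p = 3.6e-07). TRAF2, TRAF3 and TRAF7 kept their direction and their call in all 14 alternative settings.

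FADD, which links death receptors to caspase-8, had 37.0, 34.5 and 33.4 CPM in Control and 27.4, 27.7 and 31.3 CPM under WNK463. The groups were separate, and the log2 fold change was -0.28 (SE 0.08; edgeR adjusted p = 0.0039). With scaling by total counts it was -0.13 and did not pass (edgeR adjusted p = 0.15). On the TPM scale it was -0.08 and did not pass either (limma on log2(TPM + 1), adjusted p = 0.33). TRADD, the adaptor of TNFRSF1A, had 7.18, 6.72 and 6.16 CPM in Control and 4.95, 5.93 and 5.87 CPM under WNK463. All its WNK463 samples were below the Control samples, but the log2 fold change of -0.26 did not pass (edgeR adjusted p = 0.15). TRAF6, which serves CD40 and Toll-like receptors, rose (log2 fold change 0.30, edgeR adjusted p = 9.4e-04). TRAF1 and TRAF4 had log2 fold changes of 0.41 and 0.04 (edgeR adjusted p = 0.063 and 0.67), and TRAF5 had at most 1 count in any sample. TRAF1 passed without Control replicate 2 (edgeR adjusted p = 0.036) and without WNK463 replicate 2 (edgeR adjusted p = 0.038). With all samples, TRAF1 passed under scaling by total counts (log2 fold change 0.56, edgeR adjusted p = 0.014). It also passed with at least 10 counts in every sample (edgeR adjusted p = 0.044) and with limma on log2(TPM + 1) (adjusted p = 0.040), but not with DESeq2 (adjusted p = 0.11).

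The counts and TPM of CFLAR moved by different amounts. Its mean count level rose 1.80-fold, whereas its mean was 66.3 TPM in Control and 96.1 TPM under WNK463. The ratio of count to TPM gives the effective transcript length that the quantification assigned to a gene, and it was set relative to 401 genes with a single annotated transcript. For CFLAR this relative length was 96.3%, 102% and 102% of the Control mean in Control and 145%, 141% and 139% under WNK463. All WNK463 samples were thus assigned longer CFLAR transcripts on average. CFLAR is known for a long and a short protein isoform, and the table, which is per gene, does not say which transcripts were assigned. TNFSF13B and TRAF6 also passed a limit of 10% without overlap, at means of 117% and 113%, as did 7.3% of the 9170 genes that reached 100 counts in all samples. TNFSF13 moved the other way, to 93.9%. The median absolute change was 0.824% over the 21 members and 1.70% over all these genes. These lengths were examined after the values had been seen.

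**Figure D4:**
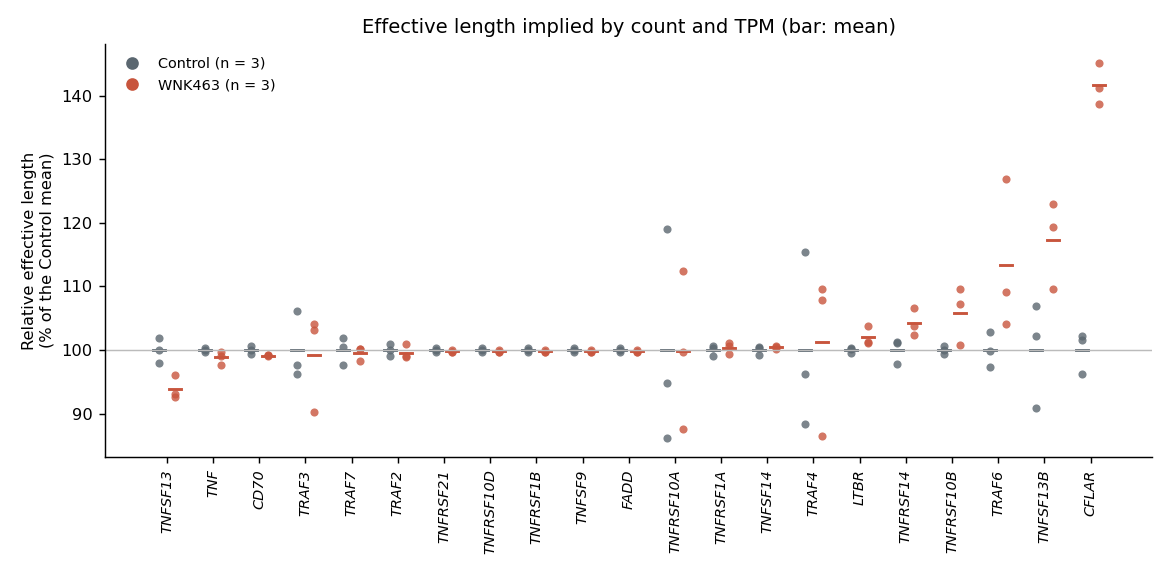
Relative effective length (count divided by TPM, as a percent of the gene's Control mean) of the members that reached 100 counts in all samples, with Control and WNK463 samples as points (n = 3 each). CFLAR stands apart at 139% to 145% in the WNK463 samples, and most members stay close to 100%.

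Other genes of TNF receptor signalling were taken from a list of 34 kinases, caspases, ubiquitin enzymes and sheddases, of which 33 were tested. Of these 13 rose, 11 fell and 9 did not pass, and the median log2 fold change was 0.09. With scaling by total counts 18 rose in place of 13 and 6 fell in place of 11, so the balance of directions depended on the scaling. The share that passed was 72.7%, beside 70.8% of all genes. The 3 largest increases were those of BIRC3, CYLD and TANK. BIRC3 (cIAP2), a ubiquitin ligase of the TNF receptor complex, had 5, 6 and 5 counts in Control and 76, 75 and 72 counts under WNK463 (log2 fold change 3.71, SE 0.31, edgeR adjusted p = 6.9e-09). The groups were far apart. CYLD, a deubiquitinase, rose from a mean of 70.2 to 160 CPM (log2 fold change 1.19, edgeR adjusted p = 1.5e-12). TANK, a TRAF-binding protein, rose from 27.4 to 57.4 CPM (log2 fold change 1.07, edgeR adjusted p = 3.3e-09).

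TNFAIP3 (A20), a ubiquitin-editing enzyme that limits NF-κB signalling, rose from a mean of 37.3 to 69.2 CPM (log2 fold change 0.89, edgeR adjusted p = 1.1e-09). RIPK1, the kinase at the TNFRSF1A complex, rose slightly (log2 fold change 0.23, edgeR adjusted p = 0.0044). CASP8, the initiator caspase of death receptors, had a mean of 18.5 CPM in Control and 19.3 CPM under WNK463, with overlapping groups (log2 fold change 0.06, 95% interval -0.15 to 0.27). BID and MAP3K14 fell, at log2 fold changes of -0.58 and -0.53 (edgeR adjusted p = 3.9e-08 and 0.0038). BID carries the caspase-8 signal to mitochondria. MAP3K14 fell together with TRAF2 and TRAF3, which encode its negative regulators. It did not pass on the TPM scale.

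**Figure D5:**
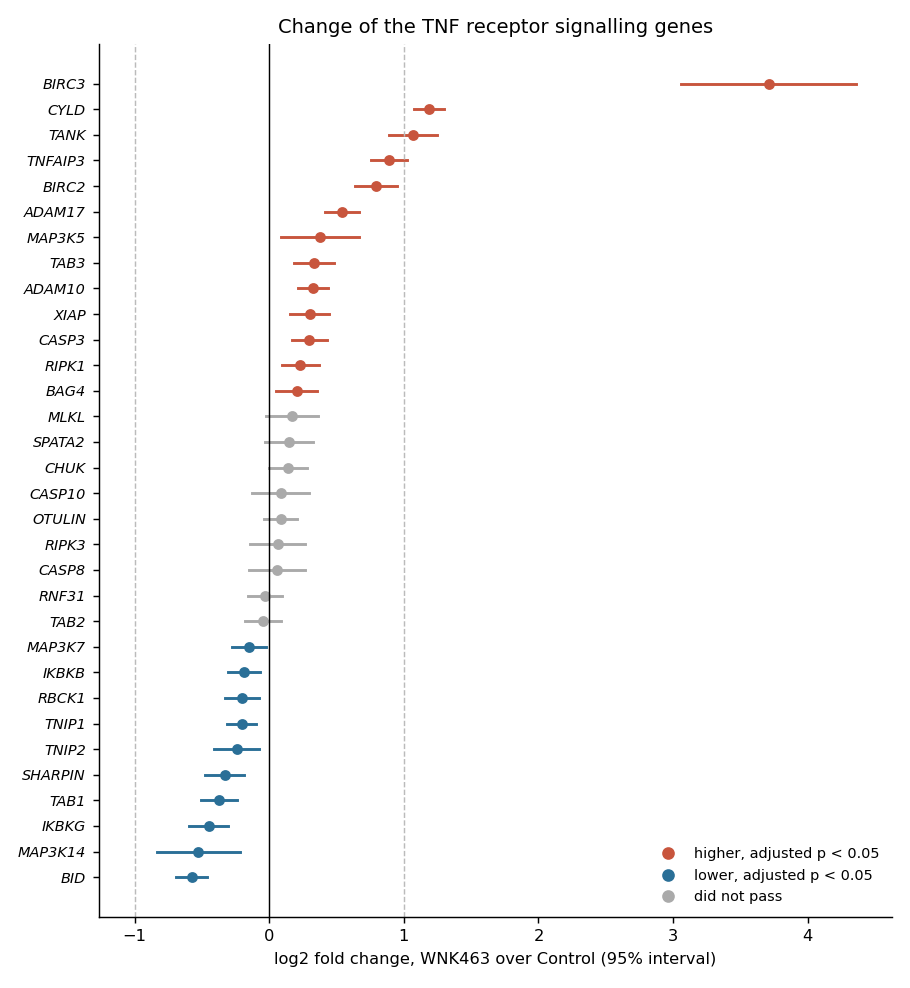
Log2 fold change of WNK463 over Control with its 95% interval for tested genes of the TNF receptor signalling list. BIRC3 stands apart at 3.71, CYLD and TANK also exceed 1, and BID and MAP3K14 lie lowest among the genes drawn, at -0.58 and -0.53.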

How the data were processed

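RNA sequencing of MV4-11 cells was analysed for 3 Control and 3 WNK463 samples, grouped by their labels. The authors deposited estimated counts per gene as whole numbers, not normalized, and TPM values. The submitters' processing notes name fastp, Bowtie2, HISAT2, StringTie, RSEM, DESeq2 and edgeR and the build GRCh38, without roles. Library strand is not given in the sources used here, so overlapping antisense genes cannot be told apart. The deposited fold changes, p-values and group means were not used.

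Counts of all genes were fitted with edgeR 4.0.16 in R 4.3.3 (TMM factors, filterByExpr, quasi-likelihood test, Benjamini-Hochberg over 11973 genes), and the procedure was tested on simulated data. In the simulation, edgeR recovered 47 of 50 genes changed 1.5-fold and all 50 changed 2-fold. It also called 25 unchanged genes, with 11880 genes tested, where DESeq2 called 15 and limma on log2(TPM + 1) called 11. With 3 against 3 samples an exact permutation test cannot go below p = 0.1, so none was used. Alternatives were DESeq2 1.42.0, total-count scaling, other filters, limma 3.58.1 on log2(TPM + 1) and log2(TPM + 0.1), a replicate block and each sample left out. Same-numbered samples did not deviate together (correlations 0.02, -0.01 and -0.05).

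The rule for members uses gene symbols alone, but the members and lists were chosen with earlier results of these data known. Values in every sample were given for the death receptors, decoy receptors, FADD, TRADD and CFLAR that passed the filter on low counts, for members that passed and changed 2-fold or more, and for the 2 most abundant members of each class, and TNF, TNFSF10, TRAF2, TRAF3, LTA and the overlapping neighbours were added after their values were seen. Of the signalling list, the 3 largest changes each way and RIPK1, CASP8, BIRC3 and TNFAIP3 were to be named, and 1 gene of the list is not reported here. Intervals on ratios of summed counts cover counting error only.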

Additional observations from a re-analysis of the deposited data

How the results depend on the processing

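Of 472 combinations of a tested member and an alternative setting, 409 kept the direction and the call. Members that rose 2-fold or more numbered 4, and 1 with at least 10 counts in every sample (TNFSF4, since the others were then not tested) or with edgeR's glmTreat (TNFRSF25). They numbered 5 with total-count scaling (adding TNFRSF4) or without the filter (adding LTA), 6 with limma on log2(TPM + 0.1) (adding TNFRSF4 and TNFSF13), and 4 with limma on log2(TPM + 1), where TNFSF13 took the place of TNFSF4. With single samples left out they numbered 4 to 5, and those that fell 0 to 1. Death receptors that rose numbered 2, but 4 with total-count scaling or with limma on log2(TPM + 1) or log2(TPM + 0.1), and 1 with at least 10 counts in every sample. The signalling genes that fell numbered 11, but 6 with total-count scaling and 3 with limma under either pseudocount and without the filter. Those that rose numbered 13, but 18 under each of these settings.

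The median log2 fold change of the tested members was 0.26. It was 0.41 with total-count scaling, 0.35 without the filter, 0.19 with at least 10 counts, 0.37 and 0.40 with limma on log2(TPM + 1) and log2(TPM + 0.1), 0.21 with limma without the filter, and 0.22 to 0.29 with single samples left out. With the replicate number as a block, 15 members rose and 9 fell, as without it, and 8398 genes passed in place of 8473. The replicate numbers share no stated source, and the block changed no call of a gene or count given here.

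The sign turned for 6 genes, none of which passed under the setting in question. TNFRSF21 was at 0.068 with total-count scaling and 0.095 and 0.11 with limma on log2(TPM + 1), with or without the filter, and log2(TPM + 0.1). TNFSF14 was at 0.14, 0.16 and 0.18 under the same settings, at 0.0082 with at least 10 counts, and between -0.15 and 0.11 with single samples left out, above 0 without Control replicate 3, WNK463 replicate 2 or WNK463 replicate 3. TNFRSF1B was at 0.01 (0.012) with limma. With single samples left out, TRAF4 ranged from -0.018 to 0.098, TNFRSF13C from -0.27 to 0.37, and CASP8 from -0.011 to 0.13. The cause was not tested. Genes with low counts in Control, such as CD40, LTB and TNFRSF25, have wide intervals at this depth.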

Other observations

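Neighbouring superfamily genes did not always move together. On chromosome 6, LTA, TNF and LTB lie within 10.5 kb. LTB and TNF rose, at log2 fold changes of 1.72 and 0.23. LTA was below the filter, with 0 to 2 counts in Control and 4 to 7 under WNK463, so none of these went the other way. On chromosome 19, TNFSF9, CD70 and TNFSF14 lie within 140 kb, and CD70 rose, TNFSF9 fell and TNFSF14 did not pass. On chromosome 12, TNFRSF1A and LTBR lie within 123 kb together with CD27, and LTBR fell while TNFRSF1A did not pass.

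Of 6 superfamily genes whose symbols the rule left out, 3 were tested. RELT, an orphan receptor, rose from a mean of 55.1 to 75.3 CPM (log2 fold change 0.45, edgeR adjusted p = 4.3e-06), and NGFR, the low-affinity neurotrophin receptor, from 5.74 to 10.9 CPM (log2 fold change 0.92, edgeR adjusted p = 1.5e-05). EDA2R had a log2 fold change of -0.92 and did not pass (edgeR adjusted p = 0.085). Among the sheddases that release ligands and receptors of this family, ADAM17 rose from 43.4 to 63.1 CPM (log2 fold change 0.54, edgeR adjusted p = 2.2e-07) and ADAM10 from 178 to 223 CPM (log2 fold change 0.33, edgeR adjusted p = 2.4e-05).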
